A study of Mus musculus with 33 samples.

Results

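The feedback regulators of p53 described here are 5 genes: Mdm2, Mdm4, Rchy1, Ppm1d and Ccng1. Each gene was represented by a window of 50 to 110 kb on the mouse build mm9, and its p53 binding sites were all called peaks that overlapped the window. The windows lay at chr10:117100000-117170000 for Mdm2, chr1:134840000-134950000 for Mdm4, chr5:92360000-92410000 for Rchy1, chr11:85110000-85180000 for Ppm1d and chr11:40530000-40590000 for Ccng1. They held 186 of the 102916 peaks in the data and 14 of the 18927 regions obtained by merging peaks that shared at least 1 bp. An annotation of mm9 was not used here, so a site is named after its window, and its place relative to a gene's exons or promoter was not analysed here.

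Binding was measured by chromatin immunoprecipitation and sequencing (ChIP-seq) with the p53 antibody NCL-p53-CM5p, and the series asked where p53 binds in Eµ-myc lymphomas once its function is restored. The Eµ-myc transgene drives the oncogene Myc in B cells, and all tumours were of C57/Bl6 background and were labelled as B cells from lymph nodes. Tumours 1 to 4 had the genotype Trp53(KI/delta), a knock-in (KI) allele over a deleted one, and were given 100 nM OHT (4-hydroxytamoxifen), which restores p53 function, or its solvent ethanol (EtOH, 1 volume per 1000), each for 2 h. Tumours 5 to 7 had the genotype Arf-/- Trp53+/+ and so lacked Arf, an inhibitor of Mdm2, in every group. Cells of each Arf tumour were given 1 µM doxorubicin, a DNA-damaging drug, 5 µM (-)-Nutlin, its mirror image 5 µM (+)-Nutlin, DMSO (0.5 volumes per 1000) or water (1 volume per 1000) for 3 h, or were left untreated. Nodes were pressed to single cells and not purified, so other cells of the node may be present, and the peak lists hold no expression with which the cell type could be checked. There was 1 list per tumour and treatment, which gave 4 OHT, 4 EtOH and 18 Arf lists, and 7 input libraries were not used.

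In the textbook account, p53 switches on genes whose products limit p53 itself. Mdm2 is a ubiquitin ligase that binds p53 and sends it to the proteasome, and Mdm4 is its relative, which masks the activation domain of p53 and pairs with Mdm2. Rchy1, also called Pirh2, is another ubiquitin ligase for p53. Ppm1d, also called Wip1, is a phosphatase that removes activating phosphates from p53 and from the kinases of the DNA damage response. Ccng1 encodes cyclin G1, which brings a phosphatase to Mdm2. (-)-Nutlin is the form that fills the p53 pocket of Mdm2, and (+)-Nutlin is the weakly active mirror image.

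The promoter sequences of these genes were searched for the kind of element p53 reads, and they are given here because binding at the genes is what was measured. They come from RefSeq on the build GRCm38.p6, not mm9, so whether a peak lay on one of them was not analysed here. p53 binds a pair of decamers, each of 10 bases. All 5 genes had entries, 7 promoters in all. Every promoter was searched from 250 bases before the start to 50 bases after it. An exact decamer was found in 4 of the 7, each time before the start, against 8.36% of all 32851 promoters, where it could lie on either side. The search covered both strands, on which the motif reads alike. Neither of the Mdm4 promoters held one, which says only that these letters are not in these stretches. Each sequence below ends at the base before the transcription start, with the decamer in capitals, and in Ccng1 the capitals mark a pair of decamers without spacer. That pair, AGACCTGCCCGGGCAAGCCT, had 1 mismatch among its 20 bases and lay at positions -195 to -176 from the start. A pair with at most 1 mismatch and 0 to 13 bases between the decamers was found in 0.627% of all promoters, and one without spacer in 0.067%. Among the 5 genes Ccng1 alone had such a pair, and Mdm2, Rchy1 and Ppm1d had a decamer without one.
Mdm2 (chr10:117710759-117711008, minus strand, decamer at -186 to -177): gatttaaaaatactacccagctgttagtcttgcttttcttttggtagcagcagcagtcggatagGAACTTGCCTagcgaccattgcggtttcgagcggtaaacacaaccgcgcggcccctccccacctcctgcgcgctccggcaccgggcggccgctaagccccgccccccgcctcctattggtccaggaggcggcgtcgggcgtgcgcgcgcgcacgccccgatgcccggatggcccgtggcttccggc
Rchy1 (chr5:91962557-91962806, minus strand, decamer at -90 to -81): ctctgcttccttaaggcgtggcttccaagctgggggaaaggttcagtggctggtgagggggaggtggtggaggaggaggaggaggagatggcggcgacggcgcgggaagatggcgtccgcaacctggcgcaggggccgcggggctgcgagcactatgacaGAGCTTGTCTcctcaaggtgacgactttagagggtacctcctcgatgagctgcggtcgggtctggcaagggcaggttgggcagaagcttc
Ppm1d (chr11:85311004-85311253, plus strand, decamer at -132 to -123): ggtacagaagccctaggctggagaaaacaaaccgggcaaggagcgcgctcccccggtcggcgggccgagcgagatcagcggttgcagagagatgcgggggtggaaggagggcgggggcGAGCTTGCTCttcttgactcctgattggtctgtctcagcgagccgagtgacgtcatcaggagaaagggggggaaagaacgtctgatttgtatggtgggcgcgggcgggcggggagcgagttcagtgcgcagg
Ccng1 (chr11:40755287-40755536, minus strand, exact decamer at -185 to -176): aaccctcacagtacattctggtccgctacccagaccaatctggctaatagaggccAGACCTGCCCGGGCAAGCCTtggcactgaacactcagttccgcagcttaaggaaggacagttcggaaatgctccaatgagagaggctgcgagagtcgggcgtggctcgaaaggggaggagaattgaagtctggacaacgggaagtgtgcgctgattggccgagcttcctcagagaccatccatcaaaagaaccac

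The lists give each peak's chromosome, start and end and no height, and read depth is unknown, so what follows rests on where peaks were called and how many base pairs (bp) they cover. The lists were of a narrow and a wide kind. In 14 lists, namely every OHT, doxorubicin and (-)-Nutlin list and all lists of tumour 5, the median peak width was 417 to 552 bp. In the other 12, namely every EtOH list and, of tumours 6 and 7, the lists of untreated cells and of cells given water, DMSO or (+)-Nutlin, it was 68 to 111 bp. OHT lists held 3597 to 10084 peaks and EtOH lists 116 to 742. In Arf tumours there were 5617 to 11346 peaks per doxorubicin or (-)-Nutlin list and 707 to 2696 in the rest. Outside tumour 5, treatment cannot be told apart from the kind of list, so tumour 5 is given separately where it bears on a result.

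All 5 windows had a peak in each of the 10 OHT, doxorubicin and (-)-Nutlin lists, called activated lists below. Of the 14 merged regions in the windows, 7 had a peak in all 10 (Mdm2 A and B, Mdm4 B, Rchy1 A, Ppm1d A, Ccng1 A and B), against 5.76% of the 18927 regions. The 5 windows together held 8 to 12 peaks in an OHT list and 0 to 3 in an EtOH list, where tumour 1 had peaks in 2 windows and tumours 2, 3 and 4 in none. They held 7 to 12 peaks in a doxorubicin or (-)-Nutlin list and 3 to 10 in an unactivated Arf list, that is, one of the untreated, water, DMSO and (+)-Nutlin lists, where between 2 and 5 of the windows had a peak. Of the 14, 12 had a peak in 3 or more lists and are named here by letter along the chromosome. The other 2 were single peaks of 344 bp in the Mdm2 window, in doxorubicin tumour 5, and of 284 bp in the Mdm4 window, in (-)-Nutlin tumour 6.

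**Figure D1:**
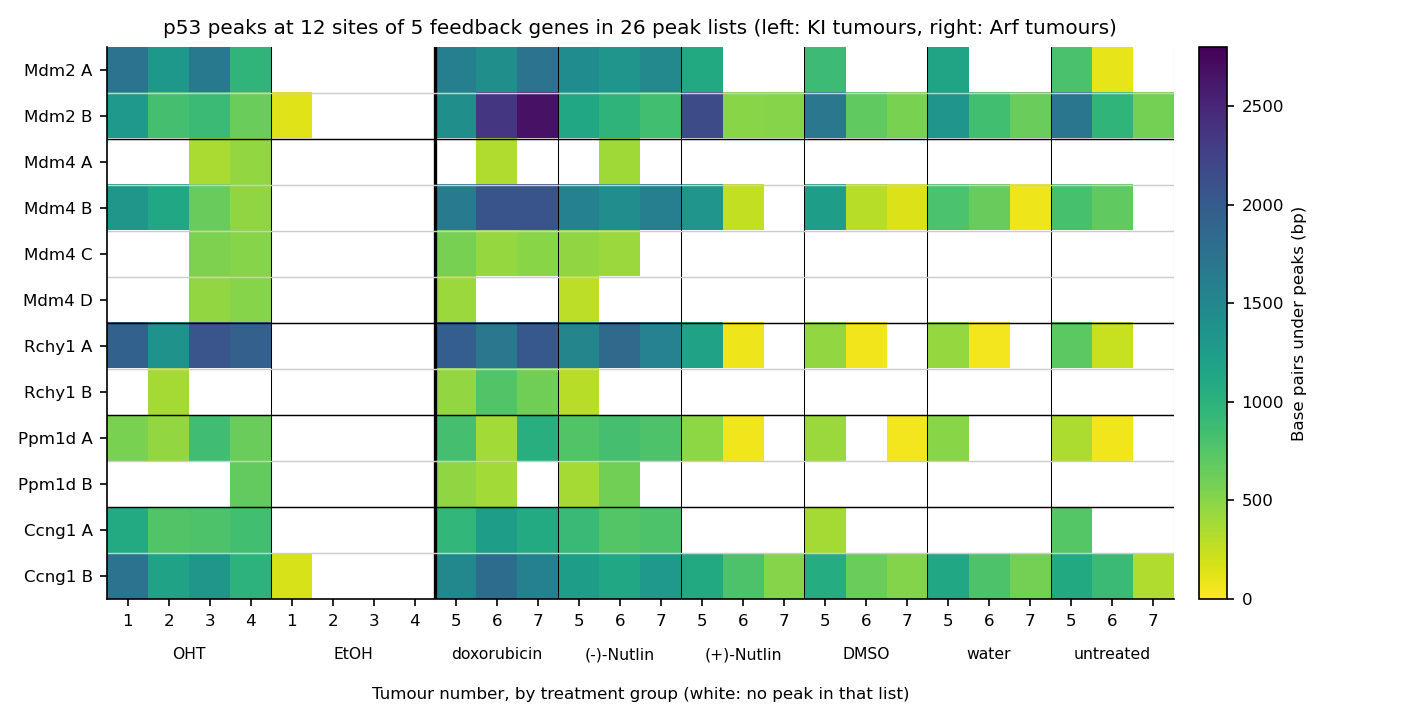
Base pairs under p53 peaks (colour scale, bp) at the 12 named sites (rows) in each of the 26 lists (columns, tumour number within treatment), with white for no peak. Mdm2 B and Ccng1 B are filled in all lists except those of EtOH tumours 2, 3 and 4, while Mdm4 A, C and D, Rchy1 B and Ppm1d B are filled in OHT, doxorubicin and (-)-Nutlin lists alone. The share of all regions called in those lists alone was not computed.

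Mdm2 had a pair of sites 7.34 kb apart. Mdm2 B, at chr10:117153278-117156020, was called in 23 of the 26 lists, a recurrence shared by 52 of all 18927 regions, or 0.275%. Its peaks were 1293, 824, 888 and 644 bp wide in OHT tumours 1 to 4, and in EtOH tumour 1 the site appeared as 2 peaks of 70 and 63 bp. It covered 1403, 2355 and 2665 bp with doxorubicin in tumours 5, 6 and 7, against 1341, 848 and 642 bp with water. In (-)-Nutlin lists Mdm2 B covered 1130, 975 and 847 bp, in (+)-Nutlin lists 2151, 503 and 509 bp, in DMSO lists 1680, 688 and 559 bp and in untreated cells 1704, 967 and 582 bp. In tumour 5 the (+)-Nutlin, DMSO and untreated lists thus exceeded doxorubicin, and in tumours 6 and 7 they did not. Tumour 5 also had more covered length at Mdm2 B with (+)-Nutlin than with (-)-Nutlin, and tumours 6 and 7 less. All 23 lists shared a stretch of 214 bp there.

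Mdm2 A, at chr10:117146429-117148318, was called in 15 lists, as were 4.65% of all regions or more often. It was called in every activated list, at 971 to 1735 bp in OHT, 1401 to 1729 bp in doxorubicin and 1342 to 1487 bp in (-)-Nutlin lists. In 4 of the 10 activated lists the site was split into 2 peaks. Among unactivated Arf lists it was called in all 4 of tumour 5, as 2 peaks each covering 808 to 1169 bp in all, and otherwise only in untreated tumour 6, as 1 peak of 103 bp. No EtOH list had it. The midpoints of the activated calls had an SD of 79.8 bp at Mdm2 A and 80.3 bp at Mdm2 B.

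Mdm4 had 4 named sites, of which Mdm4 B at chr1:134915544-134917649 was the main one with a peak in 20 lists, as in 1.76% of all regions or more often. Peaks at Mdm4 B covered 1321, 1134, 653 and 462 bp in OHT tumours 1 to 4 and none in EtOH. They covered 1652, 2073 and 2069 bp with doxorubicin and 1572, 1427 and 1589 bp with (-)-Nutlin in tumours 5, 6 and 7. Every OHT list covered fewer bp at this site than any doxorubicin or (-)-Nutlin list. From the first to the last base of the site's peaks the lists did overlap, with 1506 bp in OHT tumour 1 and 1427 bp in (-)-Nutlin tumour 6. In how many of all regions covered length separates these lists was not computed. The KI and Arf lists differ in genotype, time and agent together, and that difference was not tested.

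Mdm4 A, C and D were seen in activated lists alone. Mdm4 C, at chr1:134921574-134922175 and 5.25 kb from Mdm4 B, had peaks of 422 to 578 bp in 7 lists, which were OHT tumours 3 and 4, all 3 doxorubicin lists and (-)-Nutlin tumours 5 and 6. Mdm4 A, at chr1:134908869-134909340, and Mdm4 D, at chr1:134949447-134949958, had peaks in 4 lists each, of 332 to 450 bp and of 282 to 506 bp. Both were called in OHT tumours 3 and 4, which had the longest OHT lists, with 10084 and 9738 peaks, and not in OHT tumours 1 and 2, with 4102 and 3597. Mdm4 D lay at the edge of the window, which ends at 134950000. Activated lists held 3597 to 11346 peaks and the other lists 116 to 2696, and the part of list length in these calls was not tested. The share of all regions that were called in activated lists alone was not computed.

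Rchy1 carried one of the widest p53 peaks of restored KI tumours. Rchy1 A, at chr5:92390401-92392507, was called in 18 lists, as were 2.59% of all regions or more often. Its peak was 1932, 1359, 2059 and 1942 bp wide in OHT tumours 1 to 4 and was not called in any EtOH list. Ranked by width within the whole list, it was peak 19 of 4102, 21 of 3597, 8 of 10084 and 2 of 9738. With doxorubicin the peak was 1967, 1677 and 2027 bp wide in tumours 5, 6 and 7, and with (-)-Nutlin 1529, 1828 and 1562 bp. In unactivated Arf tumours the same site was small or missing, with 447 to 1186 bp in tumour 5, 54 to 236 bp in tumour 6 and no peak in tumour 7. Rchy1 B, at chr5:92400990-92401753 and 9.94 kb away, was called in OHT tumour 2, in all 3 doxorubicin lists at 450, 764 and 605 bp, and in (-)-Nutlin tumour 5 at 302 bp.

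Ppm1d had the smallest covered length of the 5 windows in OHT, doxorubicin and (-)-Nutlin lists on average. Ppm1d A, at chr11:85124103-85125159, was called in 17 lists, as were 3.2% of all regions or more often. Its peak was 558, 453, 854 and 635 bp wide in OHT tumours 1 to 4, 827, 387 and 1033 bp in doxorubicin tumours 5 to 7 and 764, 828 and 779 bp in (-)-Nutlin tumours 5 to 7. In unactivated Arf tumours it was 348 to 503 bp wide in tumour 5 and 52 to 63 bp in the 3 lists of tumours 6 and 7 that had it. Ppm1d B, at chr11:85166127-85166798 and 41.8 kb from Ppm1d A, was called in OHT tumour 4 and in tumours 5 and 6 with doxorubicin and with (-)-Nutlin, at 381 to 672 bp. No base pair of Ppm1d A was shared by all 17 lists, whereas the 10 activated lists shared 363 bp.

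Ccng1 had 2 sites 21.4 kb apart. Ccng1 B, at chr11:40567941-40569754, was called in 23 lists, like Mdm2 B. Its peak was 1729, 1188, 1313 and 987 bp wide in OHT tumours 1 to 4, and EtOH tumour 1 had a peak of 166 bp. All 23 lists shared those 166 bp. With doxorubicin it measured 1494, 1814 and 1567 bp in tumours 5, 6 and 7, with (-)-Nutlin 1240, 1121 and 1283 bp, and with (+)-Nutlin 1104, 777 and 510 bp. Ccng1 A, at chr11:40546891-40548201, was called in 12 lists, which were all 10 activated ones at 753 to 1241 bp and the DMSO and untreated lists of tumour 5. At least 12 lists had a peak in 9.26% of all regions. Activated midpoints had an SD of 63.8 bp at Ccng1 B and 91.7 bp at Ccng1 A.

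In KI tumours all 5 windows had at least 1 p53 peak in every OHT list, whereas in EtOH lists 3 of the windows had none and Mdm2 and Ccng1 had small peaks in tumour 1. A region was counted as gained where every list of the treated group and none of its controls had a peak. With OHT against EtOH, 5 of the 13 regions in the windows were gained, 1 per gene (Mdm2 A, part of Mdm4 B, Rchy1 A, Ppm1d A and Ccng1 A), against 9.31% of all 12799 regions. Mdm2 B and Ccng1 B were called in 4 of 4 OHT lists and 1 of 4 EtOH lists. The EtOH peaks of tumour 1 all lay within OHT peaks of the same tumour, 3 of 3, against 94.0% of all EtOH peaks under an OHT peak.

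Covered length in the Mdm2 window was 3028, 2131, 2555 and 1615 bp in OHT tumours 1 to 4, against 133, 0, 0 and 0 bp in EtOH. Mdm4 had 1321, 1134, 2011 and 1924 bp with OHT, and Rchy1 had 1932, 1738, 2059 and 1942 bp, against 0 bp in every EtOH list for both. Every OHT value of these 3 genes lay above every EtOH value. Ppm1d, the phosphatase, had 558, 453, 854 and 1307 bp with OHT, against 0 bp in every EtOH list. Ccng1 had 2815, 1946, 2098 and 1830 bp with OHT, against 166, 0, 0 and 0 bp in EtOH. Again the groups did not overlap. As a background, the genome was cut into tiles of 72 kb, the mean window length, and with OHT against EtOH the lists were separate in this way in 22% of the 7696 tiles that had a peak. Ppm1d had the least coverage of the 5 windows in all 4 OHT lists.

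On average the windows covered 2332 ± 602 bp with OHT and 33.2 ± 66.5 bp with EtOH for Mdm2, and 2172 ± 442 bp with OHT and 41.5 ± 83.0 bp with EtOH for Ccng1 (SD, n = 4 each). For Mdm4, Rchy1 and Ppm1d the OHT means were 1598 ± 435, 1918 ± 133 and 793 ± 382 bp (SD, n = 4), and EtOH was at 0. Rchy1 varied least between tumours and Ppm1d most relative to its mean. The two-sided exact permutation test gave p = 0.0286 for each of the 5 windows, the smallest value that 4 against 4 lists allow, unadjusted over the 35 window values compared here. Sign changes within tumours gave an exact p of 0.125, also the smallest value attainable, and with any 1 tumour left out the unpaired exact p was 0.1, as low as 3 against 3 lists can give. For single regions, Fisher's exact test gave an unadjusted p of 0.0286 for the 5 gained sites and an adjusted p of 0.307 over all regions, and 0 of the 12799 regions were called by it, with 1191 at an unadjusted p under 0.05. All EtOH lists were narrow and all OHT lists wide, and the part of that difference was not tested.

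**Figure D2:**
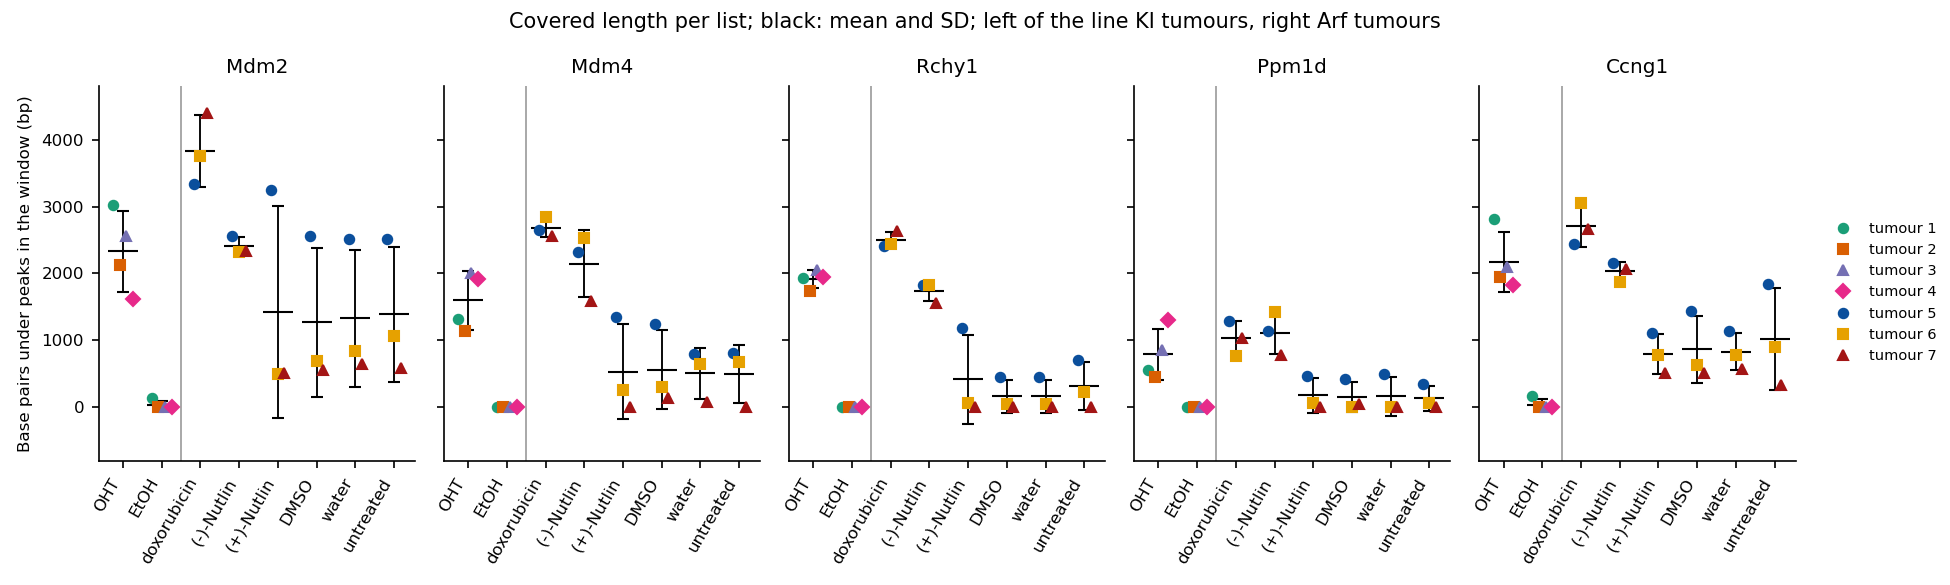
Base pairs under p53 peaks (vertical axis, bp) in each window by treatment, 1 point per tumour, with black bars for the mean and SD. OHT points lie between 453 and 3028 bp and all EtOH points at or below 166 bp, and in Arf tumours the tumour 5 points of unactivated groups lie above those of tumours 6 and 7.

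Doxorubicin lists covered more of all 5 windows than water lists in all 3 Arf tumours, both at sites with a peak in a water list and at sites without one. Mdm2 had 3336, 3756 and 4394 bp with doxorubicin in tumours 5, 6 and 7, against 2510, 848 and 642 bp with water. Mdm4 had 2649, 2848 and 2563 bp with doxorubicin, against 798, 652 and 74 bp with water. Rchy1 had 2417, 2441 and 2632 bp with doxorubicin, against 447, 54 and 0 bp with water. In these 3 windows tumour 5 was highest and tumour 7 lowest among water lists, whereas tumour 5 was highest in none of them with doxorubicin. Ppm1d had 1292, 770 and 1033 bp with doxorubicin, against 503, 0 and 0 bp with water. Ccng1 had 2435, 3055 and 2659 bp with doxorubicin, against 1137, 783 and 580 bp with water. No doxorubicin value overlapped the water values of its window, and neither did those of 44.3% of the 9192 tiles with a peak.

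Mean covered length was 3829 ± 533 bp with doxorubicin and 1333 ± 1024 bp with water at Mdm2, and 2687 ± 146 bp with doxorubicin and 508 ± 383 bp with water at Mdm4 (SD, n = 3 each). The mean difference was 2495 bp at Mdm2, 2179 bp at Mdm4, 2330 bp at Rchy1, 864 bp at Ppm1d and 1883 bp at Ccng1. The two-sided exact permutation p was 0.1 for every window, the smallest that 3 against 3 lists allow, so no window could pass 0.05. In tumour 5 alone, where both lists are wide, doxorubicin exceeded water by 826 bp at Mdm2, 1851 bp at Mdm4, 1970 bp at Rchy1, 789 bp at Ppm1d and 1298 bp at Ccng1. Without tumour 5 the mean difference at Mdm2 was 3330 bp, against 2495 bp with all tumours. Of the 13 regions in the windows, 3 were gained over water (Mdm4 C, Rchy1 B and Ccng1 A), against 18.1% of all 15038 regions, a share near that of the whole. Without tumour 5 all 5 windows had a gained region, and 4602 of all 12067 regions were gained. All 19 water peaks in the windows were overlapped by a doxorubicin peak from their own tumour, as were 95.9% of all water peaks. Fisher's exact test called 0 regions, here and in the 4 comparisons of 3 lists with 3 that follow, as 0 regions can have an unadjusted p under 0.05 at that size.

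(-)-Nutlin lists covered more of 4 windows than any DMSO list, while at Mdm2 the groups overlapped. Mdm2 had 2565, 2317 and 2334 bp with (-)-Nutlin in tumours 5, 6 and 7, against 2559, 688 and 559 bp with DMSO. Tumour 5 thus differed by 6 bp at Mdm2, whereas tumours 6 and 7 differed by 1629 and 1775 bp. Mdm4 had 2317, 2537 and 1589 bp with (-)-Nutlin, against 1240, 303 and 145 bp with DMSO. Rchy1 had 1831, 1828 and 1562 bp with (-)-Nutlin, against 449, 55 and 0 bp with DMSO. These windows did not overlap, and DMSO tumour 5 was the nearest control in both. Ppm1d had 1145, 1428 and 779 bp with (-)-Nutlin, against 419, 0 and 52 bp with DMSO. Ccng1 had 2154, 1874 and 2069 bp with (-)-Nutlin, against 1446, 637 and 516 bp with DMSO. These groups were separate as well, as were those of 47.7% of the 8029 tiles with a peak.

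The mean difference, (-)-Nutlin minus DMSO, was 1137 bp for Mdm2, 1585 bp for Mdm4, 1572 bp for Rchy1, 960 bp for Ppm1d and 1166 bp for Ccng1. In tumour 5 alone, where both lists are wide, it was 6, 1077, 1382, 726 and 708 bp in the same order of genes. In the two-sided exact permutation test p was 0.3 for Mdm2 and 0.1, the smallest possible, for the other 4. None of the 13 regions in the windows was gained over DMSO, 0 in all, against 27.9% of all 12661 regions, and 0 were lost, against 0.0079%. This count rested on the rule. When peaks below the median width were left out, 4 windows had a gained region, and 1547 of all 6458 regions were gained. With 1 exception allowed in each group it was 4 windows and 8268 of all 12661 regions. Without tumour 5 or without tumour 7, 2 windows had a gained region, and 4495 of 11047 and 6872 of 12583 of all regions were gained. Each of the regions called in all 3 (-)-Nutlin lists had a peak in at least 1 DMSO list. All 21 DMSO peaks in the windows lay under a (-)-Nutlin peak of the same tumour, as did 97.3% of all DMSO peaks.

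The mirror-image Nutlins, given at the same dose and time, gave separate values in 4 of the 5 windows. With (+)-Nutlin, covered length in tumours 5, 6 and 7 was 3248, 503 and 509 bp for Mdm2, 1345, 258 and 0 bp for Mdm4 and 1186, 67 and 0 bp for Rchy1. It was 475, 62 and 0 bp for Ppm1d and 1104, 777 and 510 bp for Ccng1. Against the (-)-Nutlin values above, every window except Mdm2 was separate, as were 44.9% of the 8025 tiles with a peak, and in Mdm2 tumour 5 was 683 bp higher with (+)-Nutlin. The mean difference, (-)-Nutlin minus (+)-Nutlin, was 985 bp for Mdm2, 1613 bp for Mdm4, 1323 bp for Rchy1, 938 bp for Ppm1d and 1235 bp for Ccng1, with exact permutation p of 0.4 for Mdm2 and 0.1, the smallest possible, for the others. In tumour 5 alone it was 972 bp for Mdm4, 645 bp for Rchy1, 670 bp for Ppm1d and 1050 bp for Ccng1. The paired 95% interval of the difference excluded 0 for Ppm1d, from 8.38 to 1868 bp, and for Ccng1, from 537 to 1934 bp. It included 0 for Mdm4, from -10.9 to 3238 bp, for Rchy1, from -156 to 2801 bp, and for Mdm2, from -2604 to 4574 bp. These intervals assume normal differences over 3 tumours. Of the 13 regions, 1 (Ccng1 A) was gained over (+)-Nutlin, against 23.6% of all 12660 regions, and 0 were lost, against 0.0079%. Without tumour 5 there were 2 windows with a gained region, and without tumour 7 there were 3. Of all regions, 4425 of 11042 and 6215 of 12603 were gained in these cases. The comparisons of (-)-Nutlin with DMSO and with (+)-Nutlin share their (-)-Nutlin lists.

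(+)-Nutlin and DMSO gave overlapping values at each window. The mean difference, (+)-Nutlin minus DMSO, was 151 bp for Mdm2, with a paired 95% interval from -1017 to 1320 bp, and -28.3 bp for Mdm4, from -341 to 284 bp. It was 250 bp for Rchy1, from -799 to 1298 bp, 22.0 bp for Ppm1d, from -137 to 181 bp, and -69.3 bp for Ccng1, from -683 to 545 bp. The exact permutation p lay between 0.7 and 1 for the 5 windows, and every interval included values on both sides of 0. Of the 8 regions in the windows called in these lists 0 were gained, against 0.0345% of all 2901 regions. At Rchy1 in tumour 5 (+)-Nutlin covered 1186 bp and DMSO 449 bp, and without tumour 5 the mean difference there was 6 bp. The difference at Ppm1d was 2 to 59 bp with 1 tumour left out.

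Doxorubicin peaks covered more of 4 windows than (-)-Nutlin peaks in each of the 3 tumours. The median width of all peaks in a list was larger with doxorubicin as well. It was 498, 517 and 552 bp in tumours 5, 6 and 7, against 432, 417 and 525 bp with (-)-Nutlin, and its part was not tested. The mean difference, doxorubicin minus (-)-Nutlin, was 1423 bp for Mdm2, 756 bp for Rchy1, 684 bp for Ccng1 and 539 bp for Mdm4, and the exact permutation test gave 0.1 for each, the smallest p possible. These 4 windows did not overlap between the agents, as was so for 17.9% of the 9870 tiles with a peak. The difference at Mdm4 was 321.5 bp without tumour 7, and that at Ccng1 was 435.5 bp without tumour 6. For Ppm1d it was -85.7 bp, with p = 0.7 by the exact permutation test, since (-)-Nutlin gave 658 bp more in tumour 6 and doxorubicin 147 and 254 bp more in tumours 5 and 7. The paired 95% interval excluded 0 for Rchy1, from 80.7 to 1432 bp, and included it for the rest. No region in the windows, 0 of 14, was gained by doxorubicin over (-)-Nutlin, against 2.61% of all 17070 regions, and 0 were lost, against 0.211%. Without tumour 5, 1 window had a gained region, and 1570 of all 15277 regions were gained.

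Set together, the 6 doxorubicin and (-)-Nutlin lists allowed a test per region against the 12 unactivated Arf lists. Fisher's exact test, adjusted over all regions (Benjamini-Hochberg), called 4 of the 14 regions in the windows more often, 1 each for Mdm4, Rchy1, Ppm1d and Ccng1, against 34.6% of all 17143 regions. It called 0 of the 14 less often, against 0.0175% of all regions. Mdm4 C was called in 5 of 6 doxorubicin and (-)-Nutlin lists and 0 of 12 others, with an adjusted p of 0.00453 by Fisher's exact test. Ccng1 A was called in 6 of 6 and 2 of 12, with an adjusted p of 0.00875 by the same exact test. Ppm1d B and Rchy1 B were each called in 4 of 6 and 0 of 12, with an adjusted p of 0.0166 by the exact test. Fisher's exact test treats lists of the same tumour as independent, which they are not, so these p-values measure spread between lists. With labels permuted within tumours, the adjusted p was 0.00958 for Mdm4 C and 0.0106 for Ccng1 A. By the same permutation it was 0.0195 for Ppm1d B and 0.0232 for Rchy1 B. The share of regions called was thus close to that of the whole, and the sites called were the secondary ones. The main sites Mdm2 B and Ccng1 B had a peak in all 18 Arf lists, and a peak in all 12 unactivated ones was found in 1.54% of all regions. Mdm4 B, Rchy1 A and Ppm1d A had a peak in 10, 8 and 7 of the 12. None was gained by the rule of every list against none, 0 of 14, against 4.29% of all regions. Without tumour 5 or tumour 7 there were 1 and 2 windows with such a region, and 1720 of 15344 and 1294 of 16747 of all regions were gained. Mdm2 A, in 6 of 6 and 5 of 12 lists, had an adjusted p of 0.0768 by Fisher's exact test, and 0.0377 when labels were permuted within tumours. Leaving out 1 tumour left 0 windows with a called region without tumour 6, 1 without tumour 5 and 2 without tumour 7. Of all regions, 2011 of 14069, 1720 of 15344 and 1294 of 16747 were called in the same order. These counts equal those by the rule of every list against none, so they are not a separate result. With fewer lists the test also has less power.

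Mean covered length was higher in the doxorubicin and (-)-Nutlin lists than in the other Arf lists at all 5 windows, and 4 windows did not overlap, against 20.4% of the 9906 tiles with a peak. Mdm2 covered 2317 to 4394 bp (median 2950.5) in the doxorubicin and (-)-Nutlin lists and 503 to 3248 bp (median 768) in the other Arf lists. Mdm4 covered 1589 to 2848 bp (median 2550) in the doxorubicin and (-)-Nutlin lists and 0 to 1345 bp (median 477.5) in the others. Rchy1 covered 1562 to 2632 bp (median 2124) in the doxorubicin and (-)-Nutlin lists and 0 to 1186 bp (median 61) in the others. Only Mdm2 overlapped among these. Ppm1d covered 770 to 1428 bp (median 1089) in the doxorubicin and (-)-Nutlin lists and 0 to 503 bp (median 57) in the others. Ccng1 covered 1874 to 3055 bp (median 2294.5) in the doxorubicin and (-)-Nutlin lists and 330 to 1841 bp (median 780) in the others, and neither of these windows overlapped. The lists of a tumour are not independent, so the tests that follow measure spread between lists. The two-sided exact permutation p was 0.00517 for Mdm2 and 0.000108 for the other 4, the smallest possible for 6 against 12 lists. Permuted within tumours, p was 0.00119 for Mdm2 and 0.000593, again the smallest possible, for the others. Taken over the 3 tumours, the paired 95% interval of the difference included 0 for Mdm2, from -1574 to 5103 bp, and excluded it for Mdm4, from 877 to 2905 bp, Rchy1, from 934 to 2769 bp, Ppm1d, from 557 to 1272 bp, and Ccng1, from 221 to 2769 bp. The Mdm2 difference of 1764.5 bp became 1517 bp without tumour 6 and 1251 bp without tumour 7, each with an exact permutation p of 0.0727, and it was 243 bp in tumour 5 alone. Of the 12 unactivated lists 8 were of the narrow kind, against 0 of the 6 others, and the part of this in the tests was not tested beyond tumour 5.

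Tumour 5 stood apart among unactivated Arf lists at every gene. Its 4 unactivated lists covered 2707 ± 361 bp of the Mdm2 window and those of tumours 6 and 7 covered 675 ± 195 bp (SD, n = 4 and 8 lists). For Mdm4 the values were 1049 ± 284 bp in tumour 5 and 264.5 ± 272 bp in tumours 6 and 7, and for Rchy1 697 ± 348 bp in tumour 5 and 51.5 ± 80.1 bp in tumours 6 and 7. For Ppm1d they were 436 ± 68.4 bp in tumour 5 and 22.1 ± 30.7 bp in tumours 6 and 7, and for Ccng1 1382 ± 343 bp in tumour 5 and 628.5 ± 183 bp in tumours 6 and 7. These lists are 1 tumour against 2, so no test was made, and the kind of list changes with the tumour. Over all peaks, the median width in these lists was 418 to 514 bp in tumour 5 and 93 to 111 bp in tumours 6 and 7. In how many tiles tumour 5 stood apart in the same way was not computed, so this is not shown to be particular to these genes.

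Within a list, the widest peak of a window can be placed among all peaks of that list by width. The lists differ in length and kind, so such percentiles describe the lists of a group and are not compared between groups. In the 6 doxorubicin and (-)-Nutlin lists the mean percentile was 99.4 ± 0.17 for Mdm4, 99.2 ± 0.64 for Rchy1, 98.9 ± 0.87 for Mdm2, 98.4 ± 0.37 for Ccng1 and 78.9 ± 26.1 for Ppm1d (SD, n = 6 lists of 3 tumours). In the 4 OHT lists it was 99.7 ± 0.27 for Rchy1, 99.0 ± 0.55 for Ccng1, 94.8 ± 6.5 for Mdm2, 82.3 ± 12.4 for Mdm4 and 75.6 ± 20.2 for Ppm1d (SD, n = 4). In both sets of lists Ppm1d had the lowest mean and the widest spread. The order of the genes was not tested.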

How the data were processed

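p53 was mapped by ChIP-seq in 26 libraries of 7 mouse lymphomas. BWA 0.6.2, SAMtools and the build mm9 are named in the submitters' processing notes. How peaks were called is not given in the sources used here, nor whether inputs served as background. The authors' deposited files have 3 columns that place each peak (chromosome, start, end), with no score or height, and depth is unknown. They were used as deposited, and coordinates are printed counted from 1.

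The members, windows and lists were chosen with earlier results of these data known. All regions of a window with a peak in 3 or more lists are named. Peaks overlapping by 1 bp or more in the lists compared were merged into regions. Gained means a peak throughout the first group and in no list of its control. Lists with and without a peak were compared by Fisher's exact test, adjusted over all regions by the Benjamini-Hochberg method, with a threshold of 0.05. Base pairs under peaks per window were compared by two-sided exact permutation tests over lists, 35 values in all, unadjusted. The tumour number in the titles marks lists of the same tumour and so pairs them; paired tests changed signs or permuted labels within tumours, and paired 95% intervals assume normal differences. As a check, the mean Jaccard index of covered base pairs was 0.588 within and 0.273 between tumours for (+)-Nutlin and DMSO lists, whose kind also changes between tumours. For doxorubicin and (-)-Nutlin it was 0.445 and 0.414. It was lower within tumours in the other comparisons. These gave 0.0954 and 0.101 for doxorubicin and water, and 0.0898 and 0.0991 for (-)-Nutlin and DMSO. For (-)-Nutlin and (+)-Nutlin it was 0.110 and 0.122, and for OHT and EtOH lists 0.00906 and 0.00997. With 1 list per tumour and treatment, p-values measure spread between lists, and the 6 and 12 lists set together come from 3 tumours. The share of 72 kb tiles whose lists do not overlap, each peak counted in the tile of its midpoint, was added after the data were seen. No 2 lists were identical. Promoters were searched in RefSeq tables of GRCm38.p6, the pair of decamers with 1 mismatch being added after the data were seen. The region test was checked on simulated lists, in which an unchanged region had the same chance of a peak in every list. Its behaviour with lists of unequal length or from shared tumours was not checked. Python 3.11.15, NumPy 2.4.6, SciPy 1.17.1 and matplotlib 3.10.9 were used. Other regulators of p53 were not analysed here, as no annotation of mm9 was used.

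Alternatives were a minimum peak width of 457 bp (the median), merging within 500 bp, 200 bp around midpoints, 1 exception allowed per group, lists cut to their widest peaks, other measures of a window (number of peaks, widest peak, its percentile), the tumour as replicate block, leaving out each tumour, and tumour 5 alone.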

Additional observations from a re-analysis of the deposited data

Results flagged for a closer look

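In EtOH tumour 1, peaks covered 133 bp of the Mdm2 window and 166 bp of the Ccng1 window, while EtOH tumours 2, 3 and 4 had no peak in either. Tumour 1 lay far from the other EtOH tumours in these 2 of the 10 groups of 4 lists examined. With 3 lists at 0, any peak in the fourth gives this result, so the usual chance of about 1 group in 20 does not hold here. The EtOH list of tumour 1 was also the shortest, with 116 peaks. Its peaks lay at Mdm2 B and Ccng1 B, the named sites called in the most lists, 23 of 26 each.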

How the results depend on the processing

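By its definition the count of windows with a gained region cannot change with the tumour as replicate block, and it was 5 for OHT over EtOH, 3 for doxorubicin over water, 1 for (-)-Nutlin over (+)-Nutlin and 0 for the others. Windows with a region called more often by Fisher's exact test were 5 with the replicate block and 4 without it. Of all 17143 regions, 7725 and 5932 were called in the same order. With lists cut to their widest peaks, OHT gained 3 windows and the tested calls in Arf tumours fell to 2. Over all regions these were 553 of 7382 and 1848 of 11699. With peaks at or above the median width, (-)-Nutlin over DMSO gained 4 windows and doxorubicin with (-)-Nutlin over the other Arf lists 1. Over all regions, 1547 of 6458 and 324 of 10961 were gained. With 200 bp around midpoints, (-)-Nutlin over DMSO gained 1 window, and 3479 of all 13083 regions were gained.

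With 1 exception allowed in each group, doxorubicin over water gained 5 windows, (-)-Nutlin 4 over DMSO and 4 over (+)-Nutlin, doxorubicin over (-)-Nutlin 1, and both agents over the other Arf lists 1. Of all regions, 8195 of 15038, 8268 of 12661, 8193 of 12660, 2362 of 17070 and 3050 of 17143 were gained in the same order. In tumour 5 alone, chosen after seeing the data, these counts of windows were 5, 3, 4, 1 and 3. There, 9193 of 11390, 8848 of 10539, 8200 of 10543, 2224 of 12658 and 5709 of 12742 of all regions were gained. With 1 tumour left out the counts of windows ranged from 3 to 5, 0 to 2, 1 to 3, 0 to 1 and 0 to 2. OHT over EtOH stayed at 5. The tested calls ranged from 0 to 2 and equalled the gained counts of both agents over the other Arf lists. For OHT over EtOH, 1370 of 11482 regions were then gained without tumour 3 and 2201 of 12155 without tumour 1.

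Some differences of a window changed sign. For (+)-Nutlin minus DMSO, Mdm2 gave -0.333 peaks, a percentile difference of -1.21 and, with 1 tumour left out, -117.5 (without tumour 5) to 319.5 bp. With 1 tumour left out Mdm4 gave -95 to 30 bp (without tumour 7) and Ccng1 -174 to 67 bp (without tumour 5), and Ccng1 gave 114 bp by widest peak and 1.88 by percentile. For (-)-Nutlin minus DMSO, Mdm2 gave -0.333 peaks. For doxorubicin minus (-)-Nutlin, Mdm4 and Rchy1 gave -0.038 and -0.34 by percentile, and Ppm1d -255.5 to 200.5 bp with 1 tumour left out (the highest without tumour 6). The causes were not tested. Fisher's exact test in tumour 5 alone was not run, as 2 against 4 lists cannot pass. Precision is limited by 3 or 4 tumours per group and by lists without depth.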
